A study of Danio rerio with 6 samples.

Results

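Secreted Wnt antagonists are proteins that act outside the cell to limit Wnt signalling, and 9 of their genes were examined in regenerating zebrafish hearts with and without a block of Notch. They were chosen by name from the authors' deposited table: wif1, NOTUM (3 of 3), sfrp1a, sfrp1b, sfrp2, sfrp5, frzb, dkk1b and dkk3b. All 9 were found in both deposited tables, among 33737 genes of the comparison table and 32105 genes of the FPKM table. FPKM counts sequenced fragments scaled to the length of the gene and the size of the library, so levels of different genes can be set side by side. The samples were hearts of adult zebrafish (Danio rerio), strain TU-AB, aged 6 to 12 months. Every heart had been amputated, and all fish, controls included, received a heat shock at 38 C for 1 hour each day until collection at 5 days. WT samples (n = 3) came from wild-type fish and DN-MAML samples (n = 3) from fish with Tg(hsp70l:DN-MAML). The transgene product is a truncated Mastermind, the co-activator of Notch, that acts as a dominant negative and blocks transcription by Notch. Its promoter, hsp70l, responds to heat and is not confined to the endocardium or to the heart. The study's title links endocardial Notch to antagonism of Wnt, and the comparison of the 2 groups asks which of these antagonists differ when Notch is blocked.

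Wnt proteins are lipid-modified ligands that bridge Frizzled receptors and the co-receptors Lrp5 and Lrp6, which stabilises beta-catenin in the receiving cell. Antagonists act at different steps. Wif1 and the secreted Frizzled-related proteins (Sfrp1, Sfrp2, Sfrp5 and Frzb) bind Wnt ligands, Dickkopf-1 binds Lrp5 and Lrp6, and Notum is an enzyme that removes the lipid from Wnt. Dickkopf-3 is the divergent member of the Dickkopf family, and its effect on Wnt signalling varies between settings. Several of these genes are themselves Wnt targets in vertebrates, dkk1 and notum among them.

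The whole tissue was measured, so fewer cells of a type and less RNA per cell cannot be told apart. Markers of cardiomyocytes (9 of 9 matched), endothelium and endocardium (8 of 9), epicardium (5 of 5), fibroblasts (6 of 7), smooth muscle, leukocytes (7 of 8) and erythrocytes were all above 0 in every sample. The cardiomyocyte list, which defines the labelled tissue, summed to 43090 to 50820 FPKM in WT and 36750 to 45790 in DN-MAML, with overlap. Of its 9 genes, 7 were on the lower side, 3 without overlap, as 8.98% of the genes tested were. All 5 epicardial genes were on the higher side, 0 without overlap. The endothelial list split into 4 higher and 4 lower, and the fibroblast list into 3 and 3. The erythrocyte list summed to 18450 to 32710 FPKM in WT and 11360 to 17260 in DN-MAML, and the smooth muscle list to 354 to 446 and 222 to 270, with no overlap in either. All 8 erythrocyte entries tested, with hbaa1 among them more than once, were on the lower side. All 7 leukocyte genes were on the higher side, 2 without overlap, as 9.83% of the genes tested were, but their sums overlapped (118 to 165 and 161 to 192). The smooth muscle sum was carried by acta2 and tagln. Its 5 entries held mylka more than once and no cnn1b, and 3 were lower, 2 higher, with a median log2 difference of -0.02. The authors' deposited table called 3 of 8 erythrocyte, 2 of 6 smooth muscle, 1 of 9 cardiomyocyte and 1 of 8 fibroblast entries lower. It called 2.27% of all its genes lower. In the endothelial, epicardial and leukocyte lists it called 0 entries, and in all of these lists 0 were called higher. The part of these differences in the results on the Wnt antagonists was not tested. WT replicate 1 stood apart: leaving it out raised the number of genes called by limma from 9 to 78 on the higher and from 7 to 105 on the lower side. Of 8 Notch targets tested, 6 were on the lower and 2 on the higher side, where 55.1% of all genes tested were higher. Of these 8, limma called 1, on the lower side, where it called 0.0423% of all genes tested. This was her6, a repressor of the Hairy/Enhancer of split family, at 39.01, 35.53 and 36.93 FPKM in WT and 21.44, 18.29 and 16.80 in DN-MAML (log2 difference -0.97, limma adjusted p = 0.0377). Its call held in 6 of the 14 alternatives tried, with adjusted p from 0.0239 to 0.142. The Notch ligand and target dll4 stood at 14.28, 12.65 and 14.45 FPKM in WT and 9.47, 10.02 and 11.86 in DN-MAML (limma, adjusted p = 0.251). The gene nrarpb lay on the higher side without overlap (2.40 to 2.71 and 2.76 to 3.29), as did 9.83% of the genes tested. The authors' deposited table called 3 of 9 Notch targets lower and 0 higher, where it called 2.27% of all its genes lower. These were her6 (log2 change -0.98, adjusted p = 1.1e-10), dll4 (-0.42, adjusted p = 0.0260) and hey1 (-0.93, adjusted p = 0.0326). The last was not among the 8 tested by limma. Whether each sample is a single animal or a pool is not stated in the labels, so the p-values reflect the spread among these 6 samples, which may be technical.

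The 9 genes spanned over 2 orders of magnitude in level, and 4 of them held most of the signal. In WT hearts dkk3b had the highest level at 54.8 ± 14.8 FPKM (SD, n = 3), above 92.5% of the genes tested. It was followed by frzb at 30.2 ± 7.41, sfrp5 at 25.2 ± 4.43 and sfrp1a at 22.3 ± 7.29, and the ranges of frzb, sfrp5 and sfrp1a overlapped their neighbours in this order. NOTUM (3 of 3) came next, with 7.34 ± 7.41 FPKM, and its WT range did not overlap that of sfrp1a above or wif1 below. At the low end stood wif1 (1.87 ± 0.265), sfrp1b (1.38 ± 0.552), dkk1b (0.800 ± 0.121) and sfrp2 (0.440 ± 0.324), each overlapping the next in order. In DN-MAML hearts dkk3b, frzb and sfrp1a overlapped their neighbours at the top of the order, with sfrp1a now above sfrp5 in every sample. By its mean wif1 was the lowest of the 9 there, but sfrp1b, sfrp2, dkk1b, NOTUM (3 of 3) and wif1 each overlapped the next in order. The NOTUM (3 of 3) mean just above wif1 rested on DN-MAML replicate 2 alone. The 4 genes dkk3b, frzb, sfrp1a and sfrp5 made up 87.7% to 95.9% of the summed FPKM of the 9 genes in a sample. That sum was 168, 132 and 133 FPKM in the WT samples, in the order of their replicate numbers, and 144, 163 and 127 in DN-MAML, so the groups overlapped in the total.

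**Figure D1:**
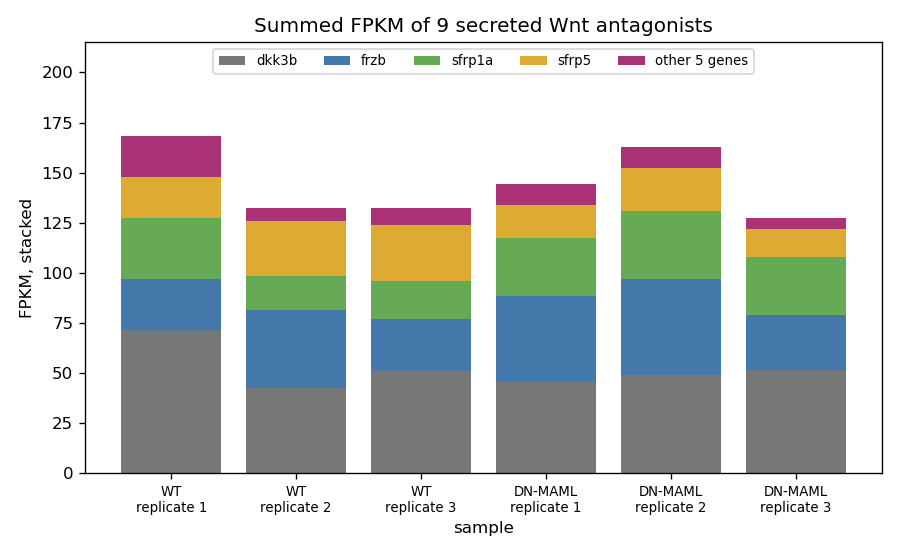
Stacked FPKM (y axis) of the 9 secreted Wnt antagonist genes in each of the 6 samples (x axis), with dkk3b, frzb, sfrp1a and sfrp5 drawn singly and the other 5 genes summed. The totals of 127 to 168 FPKM overlap between WT and DN-MAML, while the band of sfrp5 is thinner than that of sfrp1a in all DN-MAML samples and in WT replicate 1.

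Among the proteins that bind Wnt, wif1 showed the clearest separation of the groups. Its WT samples stood at 1.85, 1.61 and 2.14 FPKM, and its DN-MAML samples at 0.40, 0.72 and 0.96. Every DN-MAML value lay below every WT value, as it did for 8.98% of the genes tested, and the WT mean was 2.69 times the DN-MAML mean. On the log2(FPKM + 0.5) scale the difference was -1.01 (limma, SE 0.21, 95% interval -1.49 to -0.53). It ranked 147 by p among 16556 genes tested and did not pass over all genes (adjusted p = 0.148). No sample left out brought wif1 past the threshold, with adjusted p between 0.106 and 0.364 and differences between -1.17 and -0.82.

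Of the secreted Frizzled-related proteins, sfrp1b was the other Wnt-binding gene whose groups did not overlap, in the opposite direction to wif1, as held for 9.83% of the genes tested. WT samples stood at 1.28, 0.89 and 1.98 FPKM, against 5.40, 3.81 and 2.14 for DN-MAML. The DN-MAML mean was 2.74 times the WT mean, but DN-MAML replicate 3 lay close to WT replicate 3. The log2 difference was 1.15 (limma, SE 0.33, 95% interval 0.36 to 1.94, adjusted p = 0.255).

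Its paralog sfrp1a stood at 30.70, 17.32 and 18.98 FPKM in the WT samples and at 28.83, 33.99 and 28.90 in DN-MAML. WT replicate 1 lay within the DN-MAML range, while WT replicates 2 and 3 lay well below it. The log2 difference was 0.49 (limma, SE 0.21, adjusted p = 0.384). Without WT replicate 1 it was 0.73 (SE 0.12, adjusted p = 0.0439), which made sfrp1a the 1 member to pass in any of the fits tried. That fit called 1.11% of the genes tested, against 0.0966% with all samples. WT replicate 1 was also the highest WT sample in the summed epicardial markers, with 317 FPKM against 202 and 209 in the other WT samples and 285, 282 and 252 in DN-MAML. The same held for WT replicate 1 in the fibroblast markers, with 1812 against 982 and 1395 in the other WT samples and 1754, 1324 and 1215 in DN-MAML. It was also the highest WT sample for smooth muscle (446 against 354 and 402) and leukocyte markers (165 against 118 and 150). For cardiomyocyte (43090 against 50820 and 47500) and erythrocyte markers (18450 against 32710 and 26220) WT replicate 1 was the lowest WT sample. For endothelium and endocardium markers WT replicate 1 lay between the other WT samples (202.8 against 193.8 and 230.5). The part of any of these cell types in the sfrp1a result was not tested.

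The remaining Wnt-binding genes had overlapping groups. For sfrp5 the values were 20.06, 27.44 and 27.98 FPKM in WT and 16.62, 21.64 and 14.21 in DN-MAML. Only WT replicate 1 and DN-MAML replicate 2 crossed, and the log2 difference was -0.52 (limma, SE 0.19, 95% interval -0.95 to -0.09, adjusted p = 0.311). For frzb, which encodes the protein also called Sfrp3, the values were 25.67, 38.76 and 26.19 in WT and 42.80, 47.70 and 27.40 in DN-MAML. Its groups overlapped through WT replicate 2 and DN-MAML replicate 3, and the 95% interval of the log2 difference ran from -0.23 to 0.95 (limma, adjusted p = 0.564). The frzb difference was 0.36 with all samples and ranged from 0.20 without DN-MAML replicate 2 to 0.60 without DN-MAML replicate 3, with 0.55 without WT replicate 2. For sfrp2 the values were 0.79, 0.15 and 0.38 in WT and 3.47, 1.20 and 0.26 in DN-MAML. This gene was the most scattered of the Sfrp group, since DN-MAML replicate 1 was over 10 times DN-MAML replicate 3. Its log2 difference of 0.93 (limma, SE 0.62, adjusted p = 0.553) was 0.33 when DN-MAML replicate 1 was left out and 1.52 when replicate 3 of that group was.

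**Figure D2:**
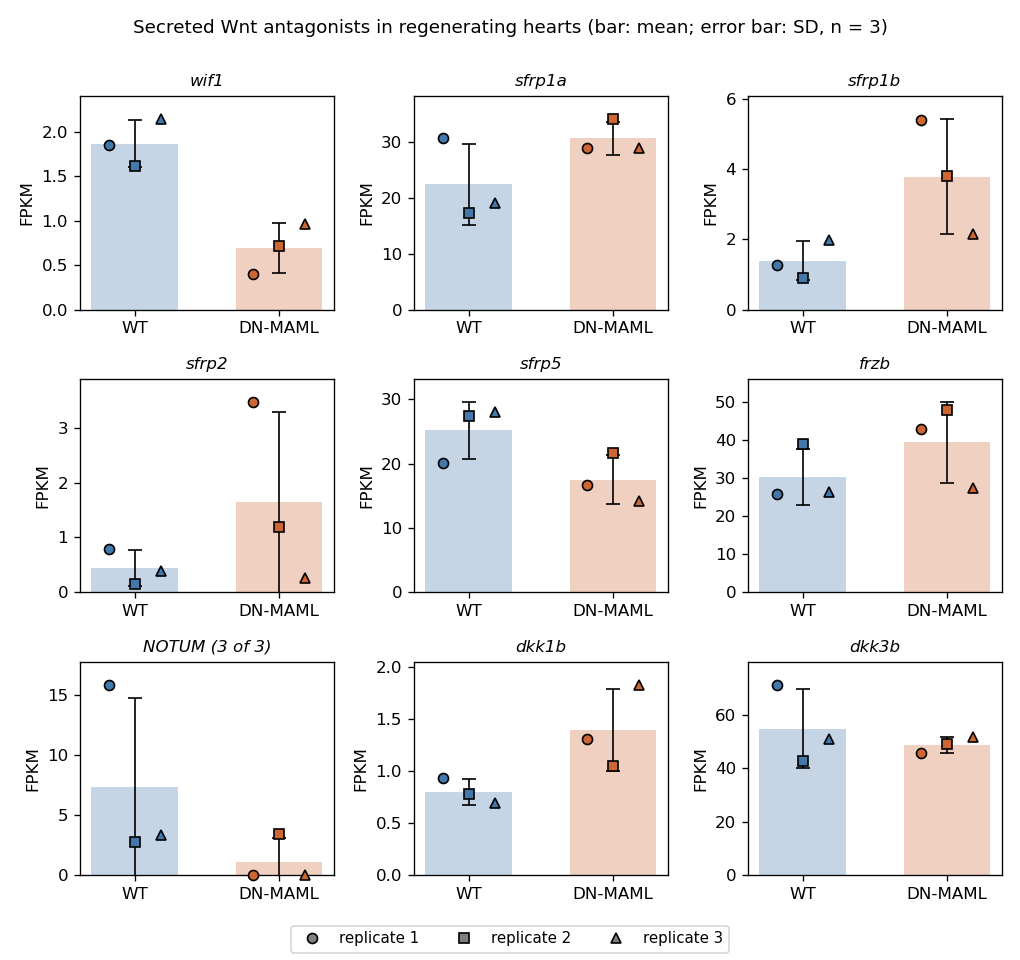
FPKM (y axis, from 0, own scale in each panel) of the 9 genes in WT and DN-MAML hearts (x axis), with bars for the mean of 3 samples, error bars for the SD (lower ends stop at 0 for NOTUM (3 of 3) and sfrp2) and a marker shape for each replicate number. The points of the groups are separate for wif1, sfrp1b and dkk1b, and overlap for the other 6 genes.

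The lipid-removing enzyme family was represented by NOTUM (3 of 3), identifier ENSDARG00000091540. It had 15.89, 2.77 and 3.37 FPKM in WT, and DN-MAML replicate 2 had 3.41, with 0 listed for replicates 1 and 3 of that group. The WT mean rested on replicate 1, and DN-MAML replicate 2 was as high as WT replicates 2 and 3. The log2 difference was -2.58, with a 95% interval of -5.35 to 0.20 (limma, adjusted p = 0.401), and with 0.1 added to the FPKM in place of 0.5 it was -4.05. With 1 sample left out it ranged from -1.84 without WT replicate 1 (adjusted p = 0.478) to -3.57 without DN-MAML replicate 2 (adjusted p = 0.213).

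The authors' deposited table lists NOTUM (3 of 3) with a mean normalized count of 479 and an SE of 0.34 for its log2 change, close to the SE of 0.29 that the same table gives wif1. Such an SE was not reconciled with FPKM that range from 0 to 15.89. Of 8762 genes with a mean normalized count of at least 400 in the authors' deposited table, 3 were listed at 0 FPKM in a sample and above 1 FPKM in another, and NOTUM (3 of 3) was among them. The zeros are therefore not read as absent expression. The gene name table used has no entry for this identifier. It gives the name notum1b to another identifier that was not matched to either deposited table. Among the related genes, notum1a had a mean normalized count of 0.75 in the authors' deposited table and notum2 one of 27.8 (log2 change -0.57, adjusted p = 0.659).

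The Dickkopf genes went different ways. For dkk1b, whose protein blocks the Wnt co-receptors, the values were 0.93, 0.78 and 0.69 FPKM in WT and 1.31, 1.05 and 1.83 in DN-MAML. All DN-MAML values lay above all WT values, as held for 9.83% of the genes tested. The DN-MAML mean was 1.75 times the WT mean, which was low, above only 8.19% of the genes tested. The log2 difference was 0.53 (limma, SE 0.19, 95% interval 0.09 to 0.97, adjusted p = 0.305). For dkk3b the values were 71.16, 42.51 and 50.74 in WT and 45.57, 49.15 and 51.51 in DN-MAML. The DN-MAML samples lay inside the WT range, and WT replicate 1 was the highest sample. The log2 difference was -0.14 (limma, SE 0.18, 95% interval -0.55 to 0.28, adjusted p = 0.773), and its sign turned without WT replicate 1, at 0.07. A related gene, dkk3a, was read from the authors' deposited table alone, where its log2 change was -0.81 (SE 0.38, adjusted p = 0.244).

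Across the 9 genes, all of which passed the minimum mean of 0.5 FPKM over the 6 samples, 5 were on the higher and 4 on the lower side in DN-MAML, where 55.1% of all genes tested were on the higher side. Of the higher ones, sfrp2 passed that minimum only through DN-MAML (mean 1.64, against 0.44 in WT), so its place in these counts and medians was favoured by the filter. limma called 0 of the 9 over all genes, where it called 0.0966% of the genes tested, 0.0544% on the higher and 0.0423% on the lower side. At an unadjusted p under 0.05 there were 4 of 9, where 13.2% of all genes were. Of these, wif1 and sfrp5 were lower, as were 6.23% of all genes, and sfrp1b and dkk1b were higher, as were 6.99%. The groups did not overlap for 3 of the 9, where this held for 18.8% of all genes. Their median log2 difference was 0.36, and 0.03 over all genes tested. The median size of the difference, whatever its sign, was 0.53 for the 9 genes and 0.15 over all genes. The genes were chosen with earlier results of these data known, so these counts are a description.

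The authors' deposited table, whose columns carry the names of a test on counts, called 3 of the 9 at an adjusted p under 0.05, where it called 4.38% of all its genes with an adjusted p, 2.11% higher and 2.27% lower. These were NOTUM (3 of 3) (log2 change -1.94, adjusted p = 5.0e-06) and wif1 (-1.31, SE 0.29, adjusted p = 0.000614) on the lower side, and sfrp1b (1.33, SE 0.33, adjusted p = 0.00433) on the higher side. The other 6 had adjusted p between 0.0978 (sfrp2) and 0.725 (dkk3b) there. All 9 had the same sign in the authors' deposited table as in the FPKM, as did 570 of the 575 genes that the authors' deposited table called and that were tested here. Both rest on the same 6 samples, so equal signs are not independent evidence. In the authors' deposited table the mean normalized count was 134 for wif1, 192 for sfrp1b, 61.7 for sfrp2 and 50.5 for dkk1b, against 2179 for sfrp5, 2264 for sfrp1a, 2960 for dkk3b and 5763 for frzb. The 4 low genes therefore rest on far fewer fragments than the 4 abundant ones.

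**Figure D3:**
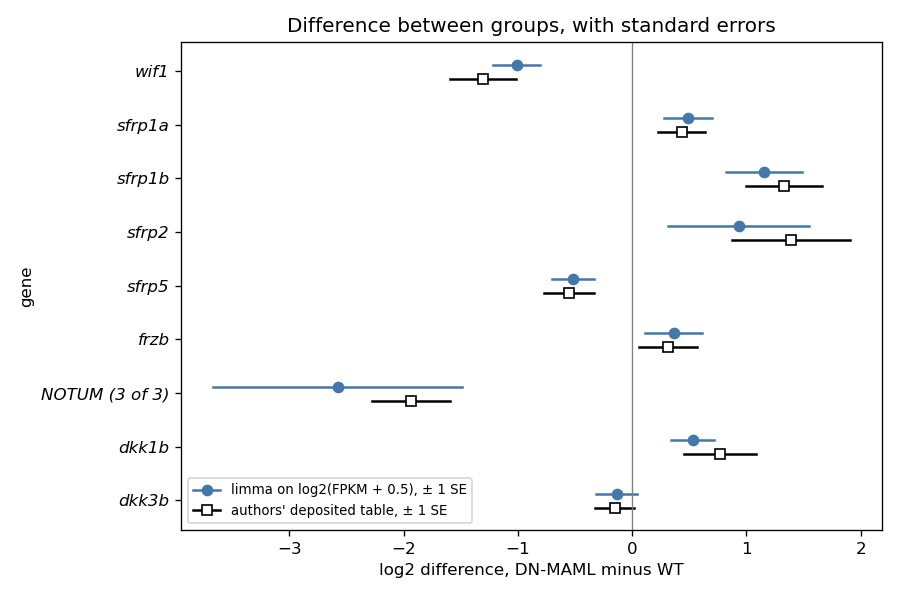
Log2 difference, DN-MAML minus WT (x axis), of each gene (y axis), from limma on the FPKM (filled circles) and from the authors' deposited table (open squares), each with a line of 1 standard error to either side. Both sources place wif1, sfrp5, NOTUM (3 of 3) and dkk3b below 0 and the other 5 genes above, and the limma line of NOTUM (3 of 3) is the widest, with an SE of 1.09.

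**Figure D4:**
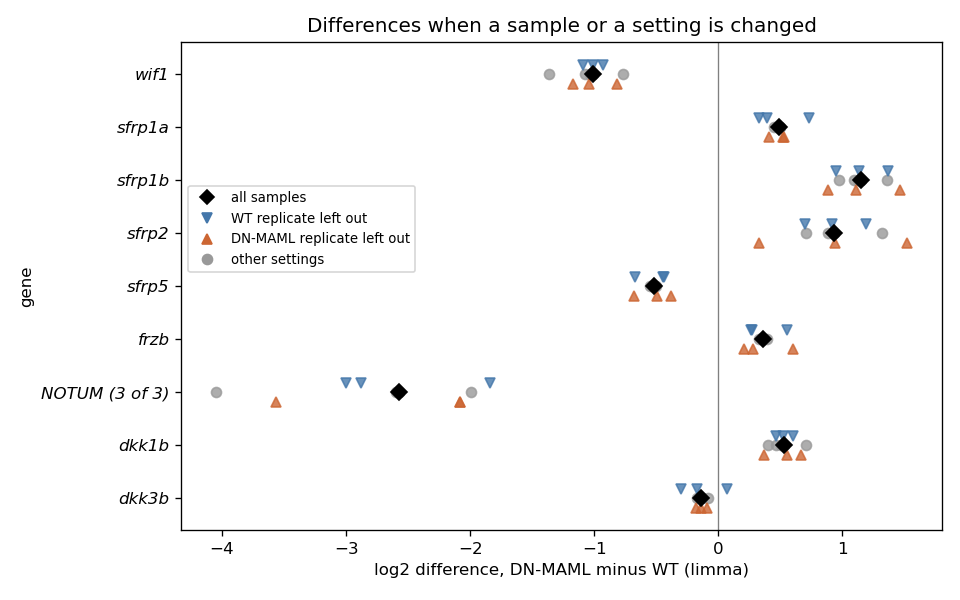
Log2 difference, DN-MAML minus WT (x axis), of each gene (y axis) with all samples (black diamonds), with a WT replicate (blue) or a DN-MAML replicate (orange) left out, and under other settings (grey). The values of wif1 stay between -1.37 and -0.77, NOTUM (3 of 3) spreads from -4.05 to -1.84, and dkk3b is the 1 gene with values on both sides of 0.

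Within the Sfrp group the summed level overlapped between WT and DN-MAML, while the shares of sfrp5 and sfrp1b did not. The summed FPKM of sfrp1a, sfrp1b, sfrp2, sfrp5 and frzb was 78.5, 84.6 and 75.5 in WT and 97.1, 108 and 72.9 in DN-MAML, and these ranges overlapped. The share of sfrp5 in that sum was 25.6%, 32.5% and 37.1% in WT and 17.1%, 20.0% and 19.5% in DN-MAML, with no overlap. The share of sfrp1b was 1.63%, 1.05% and 2.62% in WT and 5.56%, 3.52% and 2.94% in DN-MAML, with no overlap either. The ratio of frzb to sfrp5 was 1.28, 1.41 and 0.936 in WT and 2.57, 2.20 and 1.93 in DN-MAML, again apart. The ratio of sfrp1a to sfrp5 was 1.53, 0.631 and 0.678 in WT and 1.74, 1.57 and 2.03 in DN-MAML, where WT replicate 1 nearly reached DN-MAML replicate 2. Ratios within a sample do not depend on how the samples are scaled. They show unequal differences, not which member differs, and they were chosen after the values were seen and not tested.

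The rest of the Wnt pathway, taken from name lists, held 0 genes past the threshold in limma over all genes. The fit called 0.0966% of the genes tested, so 0 in lists of this size says little. Of all genes tested, 55.1% were on the higher side and 13.2% had an unadjusted p under 0.05. Of 5 Wnt ligands tested, 3 were on the higher side (median log2 difference 0.35), with 0 at an unadjusted p under 0.05. The ligand wnt2bb had 3.27, 6.59 and 8.67 FPKM in WT, against 9.74, 9.29 and 9.60 in DN-MAML (limma, adjusted p = 0.406). Its groups did not overlap, nor did those of wnt4a, with 1.79, 2.35 and 1.92 in WT and 2.36, 2.44 and 3.39 in DN-MAML (adjusted p = 0.409). This held on the higher side for 9.83% of the genes tested. The nearest wnt4a values, 2.35 in WT and 2.36 in DN-MAML, stood at the limit of the rounding to 0.01. For Wnt secretion, the cargo receptor wls had 57.2 ± 4.86 and 62.5 ± 3.59 FPKM, and the acyltransferase gene porcnl 3.09 ± 0.473 and 3.19 ± 0.566 (SD, n = 3).

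Among 19 receptors, co-receptors and R-spondin pathway genes tested, 12 were on the higher side, where 55.1% of all genes were. The median of this list was 0.06. The receptor fzd3a had 1.47, 1.39 and 1.74 FPKM in WT, against 1.17, 1.06 and 0.98 in DN-MAML (limma, adjusted p = 0.331). Its groups did not overlap, as held on the lower side for 8.98% of the genes tested. The authors' deposited table calls it lower (log2 change -0.53, adjusted p = 0.0233). It was the 1 gene called there of 23 in this list, where 4.38% of all genes were called. Another receptor, fzd8a, had 1.14 ± 0.705 and 1.81 ± 0.884 (SD, n = 3). On the higher side the groups of the co-receptor lrp5 did not overlap, as held for 9.83% of the genes tested. It had 4.73, 4.5 and 4.6 FPKM in WT and 5.18, 4.92 and 5.02 in DN-MAML (limma, adjusted p = 0.630). Of 20 intracellular pathway genes, 12 stood on the lower side, with a median of -0.06. Of all genes tested, 13.2% had an unadjusted p under 0.05 in limma, 6.23% on the lower side. Among these 20 there were 2, both lower. These were beta-catenin itself, ctnnb1, with 245 ± 19.2 FPKM in WT against 192 ± 9.60 for DN-MAML (SD, n = 3; log2 difference -0.35, limma adjusted p = 0.210), and ctnnbip1, an inhibitor that binds beta-catenin, with 15.8 ± 1.43 and 12.2 ± 0.166 (-0.36, adjusted p = 0.231). The authors' deposited table calls ctnnbip1 lower (log2 change -0.43, adjusted p = 0.00434) and does not call ctnnb1 (-0.37, adjusted p = 0.134). Of 28 genes of the intracellular list there, ctnnbip1 was the 1 called, again beside 4.38% of all genes.

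Readouts of beta-catenin signalling showed no common direction. Of 5 target genes tested, 3 were on the higher side and the median was 0.10. One of these is dkk1b, described above, and myca, a Myc gene, stood at 2.43 ± 0.415 FPKM in WT against 1.86 ± 0.371 for DN-MAML (SD, n = 3; limma, adjusted p = 0.453). The feedback gene axin2, read from the authors' deposited table alone, had a log2 change of 0.09 (SE 0.13, adjusted p = 0.798). Of the other extracellular Wnt inhibitors, 3 were abundant enough to test and all 3 were on the higher side, where 55.1% of all genes tested were. For sostdc1a, 1 of them, the log2 difference was only 0.04 (limma, adjusted p = 0.926). In the authors' deposited table the 3 had positive log2 changes, whereas dkk3a and notum2 of the same list had negative ones, given above. The membrane inhibitor apcdd1l had 1.30 ± 0.826 and 2.27 ± 0.675 FPKM (limma, adjusted p = 0.423), and the Lrp-binding sost had 3.77 ± 1.87 and 4.84 ± 0.784 (adjusted p = 0.649; SD, n = 3).

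For each member the 2 named genes with the most similar profile over the 6 samples were taken by the root mean square difference of log2(FPKM + 0.5) after each profile was centred on its own mean. For wif1 these were COLQ (2 of 2), a collagen-like anchor of acetylcholinesterase, at 0.157 log2 units, and the metalloproteinase gene mmp17a at 0.158, where wif1 itself varied by 0.552 about its mean. COLQ (2 of 2) had 1.84, 1.89 and 2.58 FPKM in WT, against 0.67, 1.22 and 1.27 in DN-MAML. mmp17a had 3.30, 3.08 and 4.2 in WT and 1.16, 2.28 and 2.05 in DN-MAML. In all 3 genes WT replicate 3 was the highest and DN-MAML replicate 1 the lowest sample.

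For sfrp1b the nearest were ptprq, a receptor-type phosphatase gene, at 0.127 log2 units and the collectin gene COLEC10 at 0.237, where sfrp1b varied by 0.710. Both had their highest value in DN-MAML replicate 1, with 1.54 FPKM for ptprq and 8.33 for COLEC10, as sfrp1b did. For sfrp2 they were the homeobox gene prrx1b (0.277) and galnt16 (0.293), for sfrp1a asb13a.1 (0.0551) and the zinc finger gene BNC1 (0.0786), and for sfrp5 the actin gene acta1b (0.0924) and lgalsla (0.0927). For frzb they were ccdc34 (0.132) and the retinoic acid hydroxylase gene cyp26b1 (0.138), for dkk1b rims2b (0.0597) and DTX4 (1 of 2) (0.0636), and for dkk3b hddc3 (0.0419) and clec19a (0.0509). For NOTUM (3 of 3), which itself varied by 1.78 about its mean, they were nme2b.2 (0.709) and ZNF326 (0.756). These matches, picked over 6 samples from those of the 16556 genes tested that have names not of the clone or identifier type, are a description.

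**Figure D5:**
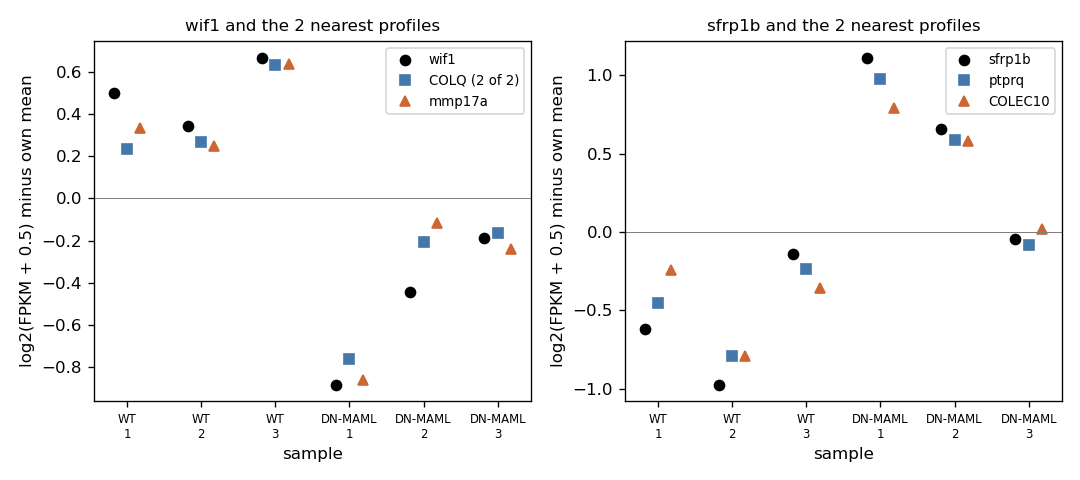
log2(FPKM + 0.5) minus the gene's own mean over the 6 samples (y axis) in each sample (x axis), for wif1 with COLQ (2 of 2) and mmp17a (left) and for sfrp1b with ptprq and COLEC10 (right). In the left panel all 3 genes lie above 0 in the WT samples and below 0 in the DN-MAML samples, and in the right panel all 3 are highest in DN-MAML replicate 1.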

How the data were processed

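RNA-seq of 3 WT and 3 DN-MAML heart samples was used as deposited. The tools named, per the submitters' processing notes and without versions or roles, are DESeq2, featureCounts, STAR, cutadapt and FastQC. Neither the genome build nor the annotation, nor what computed the FPKM, is given in the sources used here. Values of FPKM per gene were deposited by the authors, rounded to 0.01, with totals of 852778 to 914709 in a sample. The authors' deposited comparison table holds a mean normalized signal per gene (a DESeq2-style mean count), a log2 fold change with its standard error, a score that is their ratio, and an unadjusted and an adjusted p-value. Counts per sample were not used, so depth per sample is unknown and no counting interval is given.

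DN-MAML was compared with WT by limma 3.58.1 in R 4.3.3 on log2(FPKM + 0.5), with trended, robust variance, for 16556 genes with a mean of at least 0.5 FPKM. Benjamini-Hochberg adjustment ran over all of them, with a threshold of 0.05. The added 0.5 makes differences of low genes smaller than their FPKM ratios. An exact permutation test of 3 against 3 cannot go below 0.1, so none is given. Tables and plots used Python 3.11.15, pandas 2.3.3 and matplotlib 3.10.9, and the fit was tested on simulated data. Each pathway list contributed the 2 tested genes with the smallest p as values and any past the threshold. The likeness rule passed over clone-style names. Genes outside these rules (notum1a, notum2, dkk3a, axin2, lrp5, nrarpb, hey1, sostdc1a, acta2 and tagln) were chosen after their values were seen. The members and lists were chosen with earlier results of these data known. The alternatives were other added values, filters, scalings and variance estimates, a replicate block and leaving out each sample. A planned motif search was not run, since no promoter sequences were at hand.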

Additional observations from a re-analysis of the deposited data

How the results depend on the processing

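With all samples limma called 9 genes higher and 7 lower, and 0 of the 9 antagonists. Leaving out 1 sample moved these counts to between 3 and 78 higher and between 1 and 105 lower, with both maxima without WT replicate 1, and to between 0 and 1 antagonist called higher (sfrp1a, without WT replicate 1) and 0 called lower. With a minimum mean of 2 FPKM there were 5 higher and 4 lower, and with quantile normalization 5 higher. The number of antagonists whose groups do not overlap was 3 with all samples (18.8% of all genes) and 3 to 5 without 1 sample (25.8% to 37.2% of all genes). At a minimum of 2 FPKM it was 1, sfrp1b, with 6 of the 9 tested and the share of all genes not computed. The fall from 3 arose because wif1 and dkk1b were not tested there. The gene sfrp1b itself passed that minimum only through DN-MAML (mean 3.78, against 1.38 in WT). The log2 difference of dkk3b ranged from -0.30 to 0.067 without 1 sample and turned its sign without WT replicate 1. The other 8 antagonists kept their sign in all alternatives in which they were tested. The correlation of deviations between samples of the same number was 0.208, -0.0264 and 0.140 for replicates 1, 2 and 3. Replicates 1 and 3 had the highest values of all 9 pairings, replicate 2 did not, and the numbers are not read as pairs. With the replicate number as a block, 0 genes were called higher and 0 lower (2789 at an unadjusted p under 0.05), and the adjusted p was 0.162 for wif1 and 0.111 for her6. The causes were not tested. Depth per sample is unknown, so counting error could not be set beside the low FPKM of wif1, sfrp1b, sfrp2 and dkk1b.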
